A study of Mus musculus with 4 samples.

Results

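The genes described here are the guanylin pathway genes of the colon epithelium, namely the ligand genes Guca2a and Guca2b, the receptor gene Gucy2c and the kinase gene Prkg2. They were taken by name, without regard to their values, from the probe sets whose only gene symbol in the platform annotation is one of these 4. All 4 were found, on 5 probe sets, among 19938 genes measured. Guca2a encodes guanylin and Guca2b encodes uroguanylin, small peptides that gut epithelial cells release into the lumen. Both bind guanylate cyclase C, the Gucy2c product, on the apical membrane of epithelial cells, and the receptor then makes cyclic GMP. One effector of cyclic GMP in these cells is the membrane-bound kinase encoded by Prkg2, which acts on the chloride channel CFTR and on sodium-proton exchange, so the pathway is known for control of salt and water movement into the lumen and also for effects on proliferation along the crypt axis.

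The arrays came from male C57BL/6 mice aged 11 weeks that were fed for 14 days. The heme group received a feed high in fat (40% of energy) and low in calcium with 0.5 µmol/g heme, the iron pigment of red meat, and the control group received the same high-fat, low-calcium feed without heme. Cells of the luminal surface and of the crypts were lifted separately out of frozen colon rolls by laser capture microdissection, in which chosen cells are taken from a tissue section under a microscope. RNA was pooled before hybridization, over 3 mice for the heme surface array and for the heme crypt array, and over 4 mice for the control surface array and for the control crypt array. Each of the 4 groups is therefore 1 array, and both compartments of a diet were sampled from the same animals. No spread between mice can be measured, so no test was possible and no p-value is given.

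All values are on the log2 scale of the deposited RMA table, averaged over the probe sets of a gene. A pair of arrays was called different for a gene where the values were 1 or more apart (2-fold) and the greater one was not under 5.75, a floor set at the middle of the gene values on all 4 arrays. The count is a rule of size and not a test. Median absolute differences over all genes at the floor were 0.27 between the diets in surface cells and 0.21 in crypt cells, and 0.63 between surface and crypt on heme and 0.52 on the control diet. In a pool, fewer cells of a type and less RNA per cell cannot be told apart.

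The compartments carried their markers. On the control diet 7 of 8 markers of surface colonocytes passed the 2-fold rule on the surface side, and all 9 markers of the crypt base and dividing cells on the crypt side. On heme the counts were 7 of 8, and 8 of the 8 at the floor. Of all genes, 12.0% were counted as higher and 13.5% as lower in surface cells on the control diet. On heme these shares were 15.3% and 16.5%. The pools also held other cell types, since the medians of 10 smooth muscle and fibroblast markers were 8.23 in heme surface, 8.43 in control surface, 8.25 in heme crypt and 9.00 in control crypt cells.

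Guca2a was the member with a gradient along the crypt axis. Its level was 12.70 in surface cells, against 10.28 in crypt cells, on heme, and 12.88 in surface cells, against 10.87 in crypt cells, on the control diet. Both surface arrays were above both crypt arrays. The surface minus crypt difference was 2.42 on heme (5.35-fold) and 2.02 on the control diet (4.05-fold). Of the 3 members that reached the floor, Guca2a was the 1 counted as higher in surface cells on each diet, beside 15.3% of all genes on heme and 12.0% on the control diet, and none was lower, beside 16.5% and 13.5%. A difference at least as high was seen for 347 of 10698 genes on heme and for 400 of 10864 on the control diet, so the guanylin gradient was in the upper 3.24% and 3.68%. It was counted under all 9 alternative settings, with values between 1.44 and 3.53 on heme and between 1.14 and 3.13 on the control diet. The floor and probe set settings could not change this, since Guca2a has 1 probe set and lies above either floor on all arrays.

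Between the diets Guca2a differed less than between the compartments. In surface cells the heme array was at 12.70, against 12.88 on the control array, a difference of -0.19 that became 0.01 when arrays were centred on ribosomal protein genes. In crypt cells the heme array was at 10.28, against 10.87 on the control array, a difference of -0.59 with a range of -0.59 to -0.39 over the alternatives. This was not counted by the 2-fold rule, but 5.52% of all genes differed by as much or more in that direction. The lowest of the 4 Guca2a values was thus that of heme crypt cells. The surface heme difference minus the crypt one was 0.40.

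**Figure D1:**
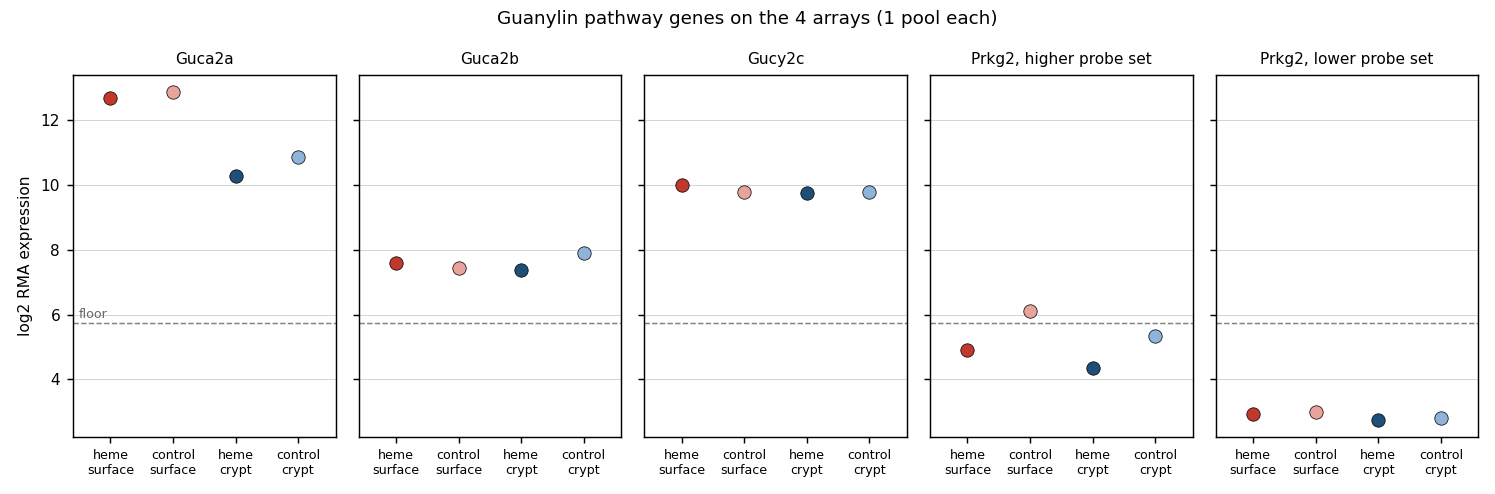
Log2 RMA expression (vertical axis) of Guca2a, Guca2b, Gucy2c and both Prkg2 probe sets on the heme surface, control surface, heme crypt and control crypt arrays, with 1 point per array and a dashed line at the floor of 5.75. Guca2a separates surface (12.70 and 12.88) from crypt (10.28 and 10.87), Gucy2c stays between 9.75 and 10.01, and for Prkg2 only the control surface value of its higher probe set (6.10) passes the floor. Levels of different genes come from different probes and are not comparable in height.

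Guca2b, the uroguanylin gene, had no counted gradient on the deposited scale. Its level was 7.58 in heme surface and 7.45 in control surface cells, and 7.38 in heme crypt and 7.90 in control crypt cells. The 4 values spanned 0.52, and the highest and the lowest were both crypt arrays. The surface minus crypt difference was 0.21 on heme and -0.45 on the control diet. These signs depended on the scaling, since the heme value became -0.77 with centring on pan-epithelial genes and the control value became 0.66 with centring on ribosomal protein genes. The 2-fold rule was passed in opposite directions, by 1.32 on heme with ribosomal protein centring and by -1.32 on the control diet with pan-epithelial centring.

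Heme and control differed for Guca2b by 0.13 in surface cells and by -0.52 in crypt cells. Both differences kept their sign under all 9 alternatives, with ranges of 0.11 to 0.33 and of -0.52 to -0.32. The floor and probe set settings could not move these values, since Guca2b has 1 probe set. In crypt cells 7.17% of all genes differed by as much or more in the same direction. Both ligand genes were therefore below their control value in the heme crypt pool (-0.59 and -0.52), and neither was counted as at least 2-fold lower.

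The ligand genes are neighbours on chromosome 4, with starts 21.2 kb apart, on opposite strands, and no other gene of the RefSeq table lies wholly between the starts. The 250 bases before each start are shown because a gradient was counted for one gene and, on the deposited scale, not for its neighbour. Sequences are from RefSeq (GRCm38.p6), 5′ to 3′ on the strand of the gene, and capitals mark, on either strand, AGATAA, which binds zinc finger factors of the GATA family, and GTTAAT, a core element of sites for HNF1 factors. The Guca2a stretch is chr4:119637482-119637731 on the plus strand and the Guca2b stretch is chr4:119658946-119659195 on the minus strand.
Guca2a: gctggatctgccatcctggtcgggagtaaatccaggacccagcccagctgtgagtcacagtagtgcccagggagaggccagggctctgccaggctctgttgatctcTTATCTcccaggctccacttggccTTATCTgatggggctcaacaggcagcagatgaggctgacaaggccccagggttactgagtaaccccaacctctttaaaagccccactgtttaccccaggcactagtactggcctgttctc
Guca2b: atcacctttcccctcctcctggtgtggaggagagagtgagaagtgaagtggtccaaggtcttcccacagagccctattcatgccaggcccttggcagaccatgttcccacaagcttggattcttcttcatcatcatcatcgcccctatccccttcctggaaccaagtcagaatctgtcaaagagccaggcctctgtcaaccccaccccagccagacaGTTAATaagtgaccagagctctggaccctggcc

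The Guca2a stretch held 2 matches to AGATAA, both as the reverse complement TTATCT, which began 144 and 120 bases before the start. The Guca2b stretch held none. Of 32851 promoter stretches of the same length in the table, 9.99% held at least 1 match and 0.938% at least 2. GTTAAT was found once before Guca2b, beginning 33 bases before the start, and not before Guca2a, with at least 1 match in 6.43% of all stretches. The letters CACCC (bound by KLF factors), not in capitals, were found once before Guca2b and not before Guca2a (52.0% of all stretches), and TTTATG (a caudal factor motif) before neither (10.8%). The 4 motifs were chosen after the expression values and these sequences had been seen, none overlaps another here, and a match is only a description of letters. Gata6, the GATA factor gene on the pathway lists, differed between surface and crypt by -0.24 on heme and -0.11 on the control diet, neither counted. Its level was 8.42 in heme surface, 8.65 in control surface, 8.66 in heme crypt and 8.76 in control crypt cells. The part of any factor was not tested. Of the 4 members, Guca2a and Guca2b matched the promoter table.

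Gucy2c, the receptor gene, differed little in level between the arrays. Its level was 10.01 in heme surface and 9.80 in control surface cells, and 9.75 in heme crypt and 9.80 in control crypt cells. The range was 0.27, and the highest value was that of heme surface cells. Heme and control differed by 0.22 in surface cells, with 0.10 to 0.41 over the alternatives. In crypt cells they differed by -0.05, a sign that turned with centring on ribosomal protein genes (0.14), on pan-epithelial genes (0.10) and on the array median (0.02).

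The small surface against crypt difference of Gucy2c depended on the scaling. Surface minus crypt was 0.27 on heme and -0.0029 on the control diet. With ribosomal protein centring these became 1.38 and 1.11, and with pan-epithelial centring -0.71 and -0.88. It stayed between 0.26 and 0.42 on heme and between -0.0029 and 0.11 on the control diet under the other settings. Centring moved the median of all genes from -0.05 to 1.06 on each diet (ribosomal proteins) and to -1.03 on heme and -0.92 on the control diet (pan-epithelial).

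**Figure D2:**
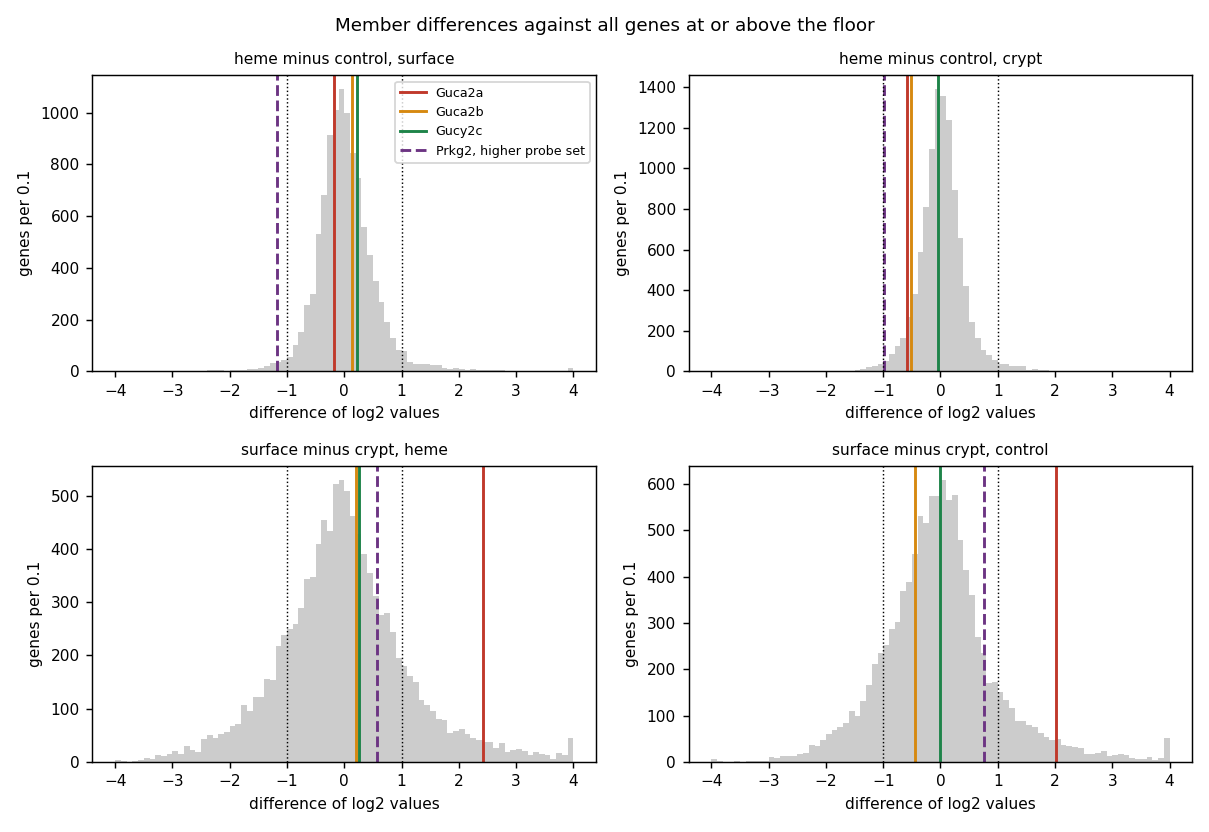
Histograms of the log2 differences of all genes at or above the floor (grey, genes per 0.1, values beyond 4 drawn at 4) for heme minus control in surface and in crypt cells and for surface minus crypt on heme and on the control diet, with coloured lines at the members and dotted lines at the 2-fold limits. Guca2a lies at 2.42 and 2.02 in the surface minus crypt panels, and the higher probe set of Prkg2 at -1.18 and -0.99 in the heme minus control panels.

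Prkg2, the kinase gene, was represented by 2 probe sets that did not give the same picture. Averaged by the rule, its level was 3.93 in heme surface and 4.55 in control surface cells, and 3.54 in heme crypt and 4.07 in control crypt cells, below the floor on all 4 arrays. Heme values were below control values in both compartments, with differences of -0.62 in surface and -0.53 in crypt cells. With no array at the floor, Prkg2 was not counted in any comparison.

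Given separately, the probe sets lay far apart. Probe set 10523511, annotated with a single sequence that is no RefSeq mRNA, lay between 2.74 and 3.00 on all arrays. Probe set 10531588, annotated with the RefSeq mRNA of Prkg2, was at 4.92 in heme surface and 6.10 in control surface cells, and at 4.35 in heme crypt and 5.35 in control crypt cells. Both heme arrays were below both control arrays. By this probe set Prkg2 differed by -1.18 on heme in surface cells (2.27-fold lower), which passed the size rule, and by -0.99 in crypt cells, where both values lay below the floor.

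Of all genes at the floor, 2.01% were counted as lower on heme in surface cells and 1.19% in crypt cells. A difference at least as low as that of the higher Prkg2 probe set was seen for 1.27% of genes in surface cells and 1.23% in crypt cells. The surface value was negative under all 7 alternatives tried for this probe set, from -1.18 to -0.69, but was not counted with log2(2^value + 32) (-0.69), with ribosomal protein centring (-0.98), with pan-epithelial centring (-1.13, where the control value fell below the floor) or with a higher floor. The floor settings could not change that sign. Surface minus crypt was 0.57 on heme and 0.76 on the control diet, and turned negative with pan-epithelial centring (-0.41 and -0.12). In the same surface pools 3 of 5 tuft cell markers, the 3 at the floor, were at least 2-fold lower on heme. The summed level (log2) of the tuft markers was 7.95 in heme, against 9.01 in control surface cells. Medians were also below 0 for the smooth muscle and fibroblast (-0.60), immune (-0.35) and goblet (-0.12) markers. They were above 0 for the enteroendocrine (0.46), surface colonocyte (0.29), crypt base and dividing cell (0.13) and endothelial (0.06) markers. The part of any cell type in the Prkg2 difference was not tested.

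Taking Guca2a, Guca2b and Gucy2c, the members at the floor, none differed 2-fold between heme and control, in surface cells (5.63% of all genes counted in either direction) or in crypt cells (2.97%). Several marker lists had medians away from 0 between the heme and control crypt pools. Of 7 goblet cell markers none was counted on heme, and their median difference was -0.48, though Zg16 went the other way (0.35). The summed level of the goblet markers was 13.98 in heme, against 14.48 in control crypt cells. Of the 8 markers of surface colonocytes, 5 were higher on heme by the 2-fold rule, beside 1.78% of all genes. Their median difference was 1.24, with summed levels of 13.04 in heme, against 12.67 in control crypt cells. The medians were also below 0 for the smooth muscle and fibroblast (-0.72), endothelial (-0.68), immune (-0.83) and tuft cell (-0.61) markers. So were those of the crypt base and dividing cell (-0.29) and enteroendocrine (-0.29) markers, but both lists were mixed. Of the 9 crypt base and dividing cell markers, Ccna2 was counted as higher (1.51) and Lgr5 as lower (-1.07). Mki67 (0.89) and Top2a (0.73) were above 0 and Ascl2 (-0.79) below. The summed level of this list was 12.08 in heme, against 11.84 in control crypt cells. That of the enteroendocrine list was 11.69, against 11.73, with Pyy at 0.49 and Chga at -0.73. Guca2a, at -0.59, and Guca2b, at -0.52, had the sign of the medians below 0, the goblet one included. The part of any of these cell types was not tested. In surface cells the goblet median was -0.12 and the surface colonocyte median 0.29.

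The genes nearest in pattern to Guca2a were Prom1, Fhdc1, Tff3 and Nek3. Likeness was the root mean square difference over the 4 arrays after each gene had been centred on its own mean, ranked over 10678 genes, and it was 0.076 for Prom1, 0.089 for Fhdc1, 0.092 for Tff3 and 0.096 for Nek3. Tff3, the gene of a trefoil peptide secreted by goblet cells, was at 12.39 in heme surface and 12.51 in control surface cells, and at 9.83 in heme crypt and 10.31 in control crypt cells. The goblet list as a whole did not share this profile, since 3 of its 7 measured markers were higher and 3 lower in surface cells on each diet, with Agr2 at -1.51 on heme and -2.04 on the control diet. Prom1, which encodes the membrane glycoprotein prominin-1, differed between surface and crypt by 2.53 on heme and 2.16 on the control diet, and between heme and control crypt cells by -0.49. Fhdc1, a formin gene, and Nek3, a kinase gene, differed between heme and control crypt cells by -0.36 and -0.44, and the crypt values of Nek3 lay below the floor. These 4 genes were picked for nearness to Guca2a on these same arrays, so the measure itself requires differences like those of Guca2a.

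For the averaged Prkg2, the nearest genes were Purg (0.013), Rara (0.031), Pard3b (0.038) and Gab1 (0.041). Purg was above the floor in control surface cells alone (6.00), and Rara was below it in heme crypt cells. Rara, the retinoic acid receptor alpha gene, was at 6.08 in heme surface and 6.73 in control surface cells, and at 5.73 in heme crypt and 6.17 in control crypt cells. Gab1, an adaptor gene of receptor tyrosine kinases, differed between heme and control by -0.66 in surface and -0.44 in crypt cells. Each of the 4 had lower values on heme in both compartments, as the measure requires. The averaged Prkg2 was below the floor on all 4 arrays and mixed a probe set with a range of 0.26 and one with a range of 1.75, so these ranks describe that average and not the higher probe set. Guca2b and Gucy2c varied by less than 1 over the arrays, so no genes were ranked for them.

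**Figure D3:**
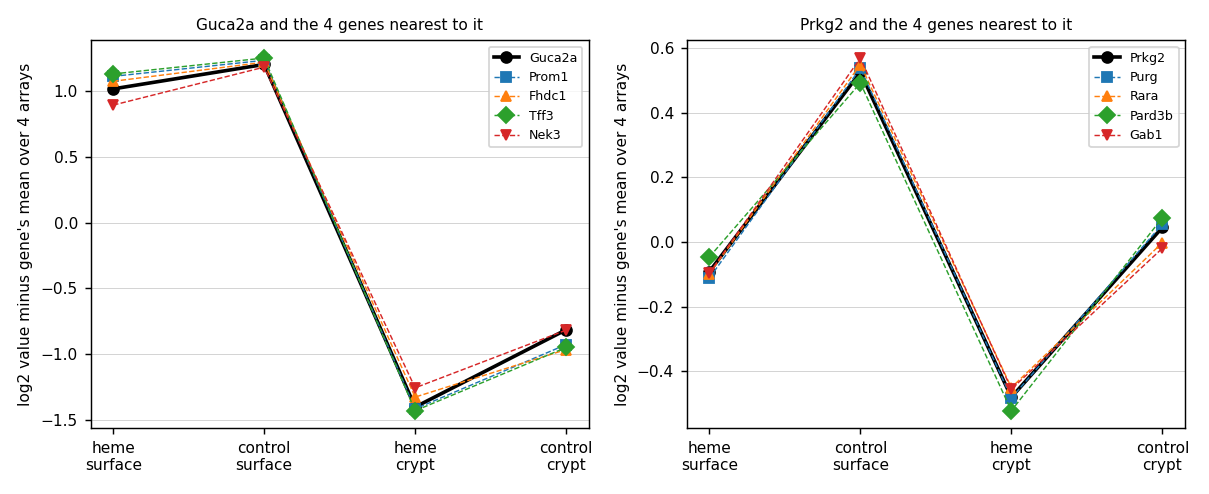
Log2 values of Guca2a (left) and of the averaged Prkg2 (right), each with the 4 genes nearest in pattern, after subtraction of the gene's own mean over the heme surface, control surface, heme crypt and control crypt arrays. The points of Prom1, Fhdc1, Tff3 and Nek3 fall within a root mean square difference of 0.096 of Guca2a, and lines only join the points of a gene.

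The wider pathway was described by 64 genes in 5 lists, of which 61 had a value and 21 were below the floor on all arrays. The lists were chosen with earlier results of these data known. Over all lists, 2 genes were counted as higher and 2 as lower on heme among 38 at the floor in surface cells (3.62% and 2.01% of all genes), and 2 and 3 among 39 in crypt cells (1.78% and 1.19%). Surface cells had 11 higher and 9 lower among 38 on heme (15.3% and 16.5% of all genes). On the control diet 9 were higher and 9 lower among 39 (12.0% and 13.5% of all genes). With ribosomal protein centring the surface against crypt split was 24 and 4 on heme and 23 and 3 on the control diet, and with pan-epithelial centring 8 and 23, and 6 and 19. None of the genes counted in the 4 comparisons changed sign under an alternative.

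Cyclic GMP is cleared by phosphodiesterases and by export pumps, and among these 13 genes the pumps differed with heme. Abcc4, which encodes a pump that exports cyclic nucleotides, was at 11.10 in heme surface and 7.17 in control surface cells, and at 8.75 in heme crypt and 7.83 in control crypt cells. It was higher by 3.93 on heme in surface cells and differed by 0.93 in crypt cells. Abcc5, the gene of a related pump, was at 7.88 in heme surface, against 6.18 in control surface cells (1.69), and at 5.53 in heme crypt, against 5.93 in control crypt cells (-0.40). These were the only 2 of the 9 list genes at the floor counted in heme surface cells, none was counted in crypt cells, and the list medians were 0.15 and 0.04 beside -0.02 and 0.01 for all genes.

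Of the phosphodiesterase genes at the floor, 3 passed the 2-fold rule between surface and crypt on both diets. With the pumps, 3 list genes were higher and 2 lower in surface cells among 10 on heme (15.3% and 16.5% of all genes). On the control diet 1 was higher and 2 lower among 9 (12.0% and 13.5% of all genes). Pde9a, whose product is specific for cyclic GMP, was higher in surface cells by 2.82 on heme and 2.39 on the control diet. Pde2a, the gene of a cyclic GMP-stimulated enzyme, was lower there (-1.87 and -1.79), as was Pde3b, the gene of a cyclic GMP-inhibited enzyme (-1.59 and -1.97), but neither was counted with ribosomal protein centring, nor Pde3b with a higher floor. In surface cells on heme, Abcc4 and Abcc5 were also counted as higher than in crypt cells (2.35 each). Pde5a, which encodes the cyclic GMP-specific enzyme best known from smooth muscle and was named after its values had been seen, was at 9.36 in heme surface, 9.10 in control surface, 9.02 in heme crypt and 9.07 in control crypt cells.

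Of the 14 genes for other guanylate cyclases, natriuretic peptides and their receptors, 3 at most reached the floor in any comparison. Gucy1a1 and Gucy1b1, which encode the subunits of the nitric oxide-sensitive soluble cyclase, were at 5.61 and 4.92 in heme crypt cells, against 6.99 and 5.93 in control crypt cells, with differences of -1.38 and -1.01. Neither was counted with log2(2^value + 32) or with a higher floor, and Gucy1b1 was also not counted with ribosomal protein, pan-epithelial or median centring or with cyclic loess. In the same pools 3 of the 10 markers of smooth muscle and fibroblasts also passed the rule, lower on heme, beside 1.19% of all genes. Their summed level was 11.53 in heme, against 12.40 in control crypt cells. Of the immune markers at the floor 2 of 4 were also counted as lower, and of the endothelial markers 1 of 5. The surface colonocyte markers went the other way, with a median of 1.24. The part of any of these cell types was not tested. The natriuretic peptide receptor genes Npr1 and Npr3 were below the floor on all 4 arrays, but Npr2 was below it in heme crypt cells alone. Npr2 was at 6.17 in heme surface, 6.18 in control surface, 5.36 in heme crypt and 6.18 in control crypt cells. Its differences were -0.82 between heme and control crypt cells and 0.81 between surface and crypt on heme, neither counted.

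Among 10 measured genes of other cyclic nucleotide effectors, 5 reached the floor. Prkar2b, the gene of a regulatory subunit of the cyclic AMP-dependent kinase, was at 5.92 in heme crypt, against 7.03 in control crypt cells (-1.11), and was not counted with log2(2^value + 32), with centring on ribosomal proteins or pan-epithelial genes or with a higher floor. The immune marker median in the same comparison was -0.83 and that of smooth muscle and fibroblasts -0.72, and their part was not tested. Vasp, a classic substrate of cyclic GMP-dependent kinases, differed by -0.01 in surface and 0.04 in crypt cells. Prkg1, the gene of the kinase related to that of Prkg2, was below the floor on all arrays, between 4.88 and 5.26.

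**Figure D4:**
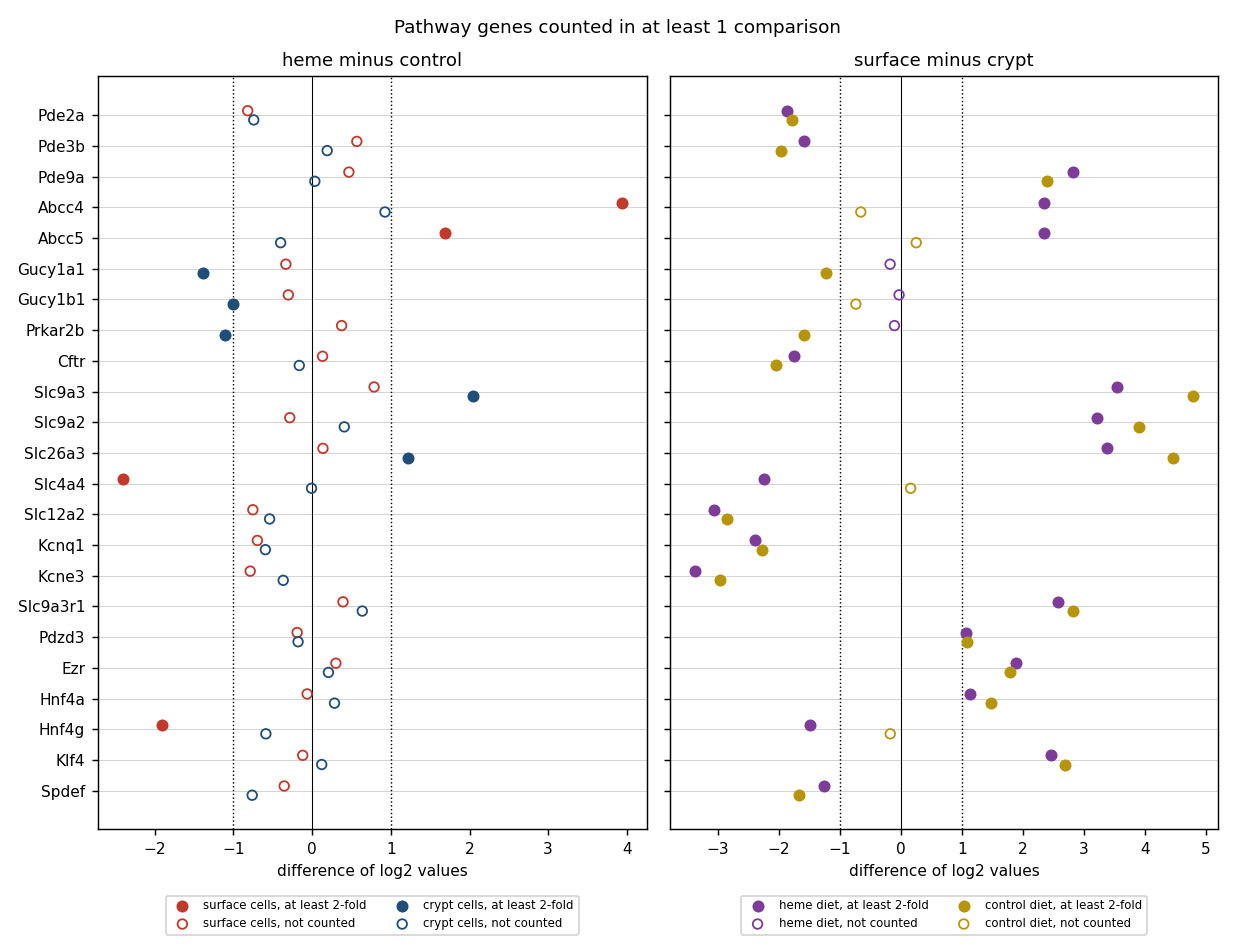
Log2 differences of the 23 pathway genes counted in at least 1 comparison, for heme minus control (left, surface and crypt cells) and surface minus crypt (right, heme and control diet), with filled points for differences of at least 2-fold with an array at the floor and dotted lines at the 2-fold limits. Abcc4 (3.93) and Slc4a4 (-2.40) lie farthest out in heme surface cells, and Slc9a3 (2.05) in heme crypt cells.

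The transport genes on which the pathway acts included some higher in surface and some higher in crypt cells. The sodium-proton exchanger gene Slc9a3 was higher in surface cells by 3.54 on heme and 4.80 on the control diet, the chloride exchanger gene Slc26a3 by 3.39 and 4.47, and Slc9a2 by 3.21 and 3.90. Cftr, the chloride channel gene, was lower there (-1.76 on heme and -2.05 on the control diet), though it was not counted with ribosomal protein centring on either diet. Other genes that serve chloride secretion were also lower in surface cells, namely the cotransporter gene Slc12a2 (-3.06 and -2.85) and the potassium channel genes Kcne3 (-3.38 and -2.96) and Kcnq1 (-2.39 and -2.29). Of 12 transport and scaffold genes at the floor, 6 were higher and 5 lower in surface cells on heme, and 6 and 4 on the control diet, beside 15.3% and 16.5% of all genes on heme and 12.0% and 13.5% on the control diet. Guca2a thus had its higher values on the side of the exchanger genes, while the receptor gene Gucy2c differed by 0.27 and -0.0029.

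With heme, Slc4a4, the gene of a basolateral sodium bicarbonate cotransporter, was at 6.18 in heme surface, against 8.58 in control surface cells (-2.40), and at 8.41 in heme crypt, against 8.42 in control crypt cells. It was the 1 transport gene counted in heme surface cells. In crypt cells Slc9a3 was at 9.24 on heme, against 7.20 on the control diet (2.05), and Slc26a3 at 9.42, against 8.20 (1.22). Both also stand on the surface colonocyte list. Cftr differed by 0.13 in surface and -0.16 in crypt cells. The scaffold gene Slc9a3r1 differed by 0.39 and 0.64.

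Among 10 measured transcription factor genes of the intestinal epithelium, Hnf4g was the 1 counted with heme. It was at 6.05 in heme surface, against 7.96 in control surface cells (-1.91), and at 7.54 in heme crypt, against 8.13 in control crypt cells (-0.59). Cdx2, the caudal factor gene known to act on the Gucy2c promoter, was at 8.39 in heme surface, against 9.20 in control surface cells (-0.81), and at 8.27 in heme crypt, against 8.58 in control crypt cells (-0.31), neither counted. Hnf4a and Klf4 were higher in surface cells on heme (1.13 and 2.46) and on the control diet (1.48 and 2.70), while Spdef, a goblet cell factor gene, was lower (-1.26 and -1.67). Hnf4a was not counted on either diet with pan-epithelial centring, nor Spdef with ribosomal protein centring.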

How the data were processed

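Per the submitters' processing notes the authors used RMA, which corrects background, quantile-normalizes arrays and summarises probes, to make the deposited log2 values. Neither its version nor the arrays normalized jointly could be read from the labels. The labelling kit used 100 ng of pooled RNA per the labels' protocols. Precision is limited by there being 4 arrays, and detection calls were not used.

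Of 35556 probe sets, 21789 had 1 gene symbol, 1621 several and 12146 none, and symbols were updated through gene identifiers to GRCm38.p6. Single-symbol probe sets were averaged into 19938 genes. No probe set with several symbols held a member. Differences are log2 values of 1 array minus another, with a floor at the median of all gene values. The code of the size rule and of the ranking of likeness was run on simulated data with planted large differences and little noise. Such a run shows that the code works and does not measure error rates in these data. The members and the gene lists were chosen with earlier results of these data known. The text names the members and the 4 genes nearest to each member whose values span at least 1. From each pathway list it names some of the 4 genes with the largest differences in each comparison. Not all of these are named, as with Klf5 on heme in surface cells (-0.89). Other pathway genes named for their role, such as Npr1, Npr3, Prkg1, Vasp, Pde5a, Cftr and Gata6, were chosen after their values were seen where the rule does not reach them. The alternatives were log2(2^value + 32), centring on 52 ribosomal protein genes, on 8 pan-epithelial genes or on the array median, cyclic loess, no floor, a floor at the upper quartile (7.53), and 2 other uses of probe sets. Python 3.11.15, pandas 2.3.3, numpy 2.4.6, matplotlib 3.10.9, R 4.3.3 and limma 3.58.1 were used.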

Additional observations from a re-analysis of the deposited data

Results flagged for a closer look

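For 2 members the heme minus control difference had opposite signs in surface and crypt cells, and with 1 array per group this was not tested. Guca2b differed by 0.13 in surface and -0.52 in crypt cells, so that the surface difference minus the crypt difference was 0.65. This was positive under all 9 alternatives (0.55 to 0.69), of which the floor and probe set settings could not change it. A value at least as high was seen for 8.20% of 11147 genes. Gucy2c differed by 0.22 in surface and -0.05 in crypt cells, with a difference of 0.27 between them (0.15 to 0.31), and 25.2% of genes were at least as high. The crypt value of Gucy2c was above 0 with ribosomal protein, pan-epithelial and median centring.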

How the results depend on the processing

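No paired analysis was possible because each group holds 1 array. Each of 20 results (4 members in 5 comparisons) was recomputed under 9 alternatives, and 175 of the 180 values stayed on the same side of the size rule. The 5 that came to be counted were Prkg2 on heme in surface cells from its higher probe set (-1.18), surface minus crypt with ribosomal protein centring for Guca2b on heme (1.32) and for Gucy2c on heme (1.38) and on the control diet (1.11), and surface minus crypt of Guca2b on the control diet with pan-epithelial centring (-1.32). The sign differed in 12 of the 180, none of them counted on the deposited scale. Except for Guca2a on heme in surface cells and Gucy2c on heme in crypt cells, these were surface minus crypt differences, mostly under ribosomal protein or pan-epithelial centring, which move all genes together. With log2(2^value + 32) the genes counted as lower on heme numbered 123 in surface and 52 in crypt cells, in place of 207 and 125, and with ribosomal protein centring 602 were higher in surface cells in place of 372. The settings combined with the higher Prkg2 probe set were chosen after seeing the data. Counting probe sets with several symbols left the members' values as they were, since none held a member. Taking the highest probe set could change Prkg2 alone, since each other member has 1 probe set. The floor settings act on the count and not on the values. Under these settings most values thus stayed the same by construction.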
